A study of Capra hircus with 3 samples.

Results

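A large cluster of microRNA (miRNA) genes lies in the imprinted DLK1-DIO3 region, which is on chromosome 21 in the goat. The cluster was taken as 32 miRNAs known from this region, chosen by name, and their reads were counted by sequence. A clean tag, which is a distinct small RNA sequence with its number of reads, was counted for a member when its first 18 nt were those of a tag that the study had annotated to that miRNA by comparison with cattle miRNAs. Annotated tags were held for 30 of the 32 miRNAs, of 312 miRNAs in the whole series, and miR-127 and miR-381 were left out because no annotated tag was held for them. The 30 miRNAs gave 43 arms, the term used here for the products of either side of the hairpin, of 467 arms built from this copy. All arms, or the arms of the series, means these 467 below, and miRNAs or tags missing from the copy are not counted in them. Skin of the flank had been taken from adult Shanbei White cashmere goats, a fibre-producing breed, in anagen (growth of the hair follicle), catagen (regression) and telogen (rest). RNA of 10 goats, males and females, had been mixed for each stage, and 1 library was made from each mixture, so that there were 3 libraries with no replicates. No treatment or genotype separates the libraries, and stage is the only label that differs. Every test below compares 2 libraries and not conditions, and a difference between stages cannot be told apart from a difference between mixtures.

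In mammals, the maternal copy of the DLK1-DIO3 region is the source of the long noncoding RNA MEG3 and of the miRNAs, while the paternal copy is the source of the proteins DLK1, RTL1 and DIO3. The miRNA genes form a group near and antisense to RTL1, with miR-433, miR-127, miR-432 and miR-136, and a second, larger group that runs from miR-379 to miR-410. Precursors of the latter are cut from long transcripts, and their products are known from embryonic tissue, placenta, brain and mesenchymal cells. Each miRNA pairs with messenger RNAs mainly through its seed, bases 2 to 8 from the 5′ end, and lowers their translation or stability. The parent of origin was not measured in these libraries.

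The sequences below are the most abundant tags of the arms on which the results turn, with the seed in capitals and T in place of U, as in the deposited tags. Arms are called major and minor by their reads over the 3 libraries, because no hairpin was used to tell the 5′ from the 3′ side. The first 5 arms carried most of the reads of the cluster.
miR-379 major arm: tGGTAGACtatggaacgtaggcat
miR-432: tCTTGGAGtaggtcattgggt
miR-411a major arm: aTAGTAGAccgtatagcgtac
miR-485 major arm: aGAGGCTGgccgtgatgaattcg
miR-495: aAACAAACatggtgcacttctt

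The arms of miR-299 and miR-382 are shown because the share of reads between the arms differed among the libraries, and those of miR-382 also because the length of their reads did.
miR-299 major arm: tGGTTTACcgtcccacatacat
miR-299 minor arm: tATGTGGGacggtaaaccgctt
miR-382 major arm: aATCATTCacggacaacact
miR-382 minor arm: gAAGTTGTtcgtggtggattcg

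Of the 43 arms, 39 different seeds were read from the most abundant tags. The seed ACATAGA was shared by miR-376c and the miR-376e major arm, TCATAGA by miR-376a and miR-376b, ATGTAAC by the minor arms of miR-379 and miR-411a, and TCATACA by the minor arms of miR-154b and miR-485. The tags of these close relatives are shown because few letters separate them.
miR-376a: aTCATAGAggaaaatccacgt
miR-376b: aTCATAGAggaaaatccatgt
miR-376c: aACATAGAggaaattccacgt
miR-376e major arm: aACATAGAggaaaatccacatt
miR-379 minor arm: tATGTAACatggtccactaac
miR-411a minor arm: tATGTAACacggtccactaac
The first 18 nt of miR-376a and miR-376b are identical, and the tags differ first at position 19. Reads were given to the relative with the longer match, and 1 read, in anagen, could not be placed. The minor arms of miR-379 and miR-411a differ at 1 of 21 positions, the 10th. A read error at such a position would move a read between relatives, so the lower counts of a pair are the less certain.

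The cluster was a minor part of the skin miRNAs and was lowest in the anagen library. The libraries held 15997828 (anagen), 18111912 (catagen) and 27016012 (telogen) clean reads, and 3718, 8071 and 11034 of these belonged to the arms of the cluster. Levels are given as reads per 1000000 clean reads (TPM). The summed level was 232 TPM in anagen (95% interval 225 to 240), while catagen had 446 TPM (436 to 455) and telogen 408 TPM (401 to 416). Intervals are exact (Clopper-Pearson) and cover the counting error of reads only, and not differences between goats or mixtures. PCR copies of a molecule count as separate reads, so that the intervals may be too narrow even for counting error. The log2 ratio of the sums was −0.94 for anagen against catagen (−1.0 to −0.88), −0.81 for anagen against telogen (−0.87 to −0.76) and 0.13 for catagen against telogen (0.08 to 0.17). As a share of all reads assigned to miRNA arms, the cluster held 0.0519%, 0.0994% and 0.113% for anagen, catagen and telogen, and on this scale telogen stood above catagen, with a log2 ratio of −0.19 for catagen against telogen. Tags of 18 to 20 nt, more frequent in anagen, narrowed the gap: with tags of 21 nt or longer the log2 ratio was −1.25 for anagen against catagen.

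The summed levels of the marker lists of other tissues were also lower in anagen than in catagen, though not every marker was. The summed level of the 4 skeletal muscle miRNAs (miR-133a, miR-133b, miR-206 and the dominant miR-1) was 4117 TPM in anagen, but 78784 TPM in catagen and 21404 TPM in telogen, so that anagen stood at 0.0523 and telogen at 0.272 of the catagen level. The 2 miRNAs of dermal mesenchyme summed to 12376, 22617 and 17894 TPM, or 0.547 and 0.791 of catagen, and nearly all of this was miR-199a, since miR-214 had at most 1.63 TPM. The cluster stood at 0.522 of the catagen level in anagen, near the dermal list, but at 0.917 in telogen, where the dermal list stood at 0.791. The 3 red blood cell miRNAs (miR-144, miR-451 and miR-486) summed to 1312, 2137 and 878 TPM, or 0.614 and 0.411 of catagen. Within this list miR-451 and miR-486 were lower in anagen than in catagen, but miR-144 was higher, with 114 TPM in anagen and 92.0 in catagen. The 4 epithelial miRNAs with listed tags (miR-200a, miR-200b, miR-205 and miR-183) summed to 1198, 1945 and 2018 TPM, or 0.616 and 1.04 of catagen, of which miR-205 was the largest part. While miR-205 and miR-200b were lower in anagen than in catagen, miR-183 (159 against 109 TPM) and miR-200a (1.38 against 1.16 TPM) were higher. No listed tag was held for the epithelial miR-203 or the liver miR-122. The share of these tissues in the results below was not tested, and in mixed skin RNA fewer cells of a type and less RNA per cell cannot be told apart.

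Levels within the cluster spanned more than an order of magnitude among the 24 arms with at least 100 reads over the 3 libraries, and a few arms dominated. The 3 arms with the most reads (miR-379 major, miR-432 and miR-411a major) held 56.8%, 54.9% and 51.3% of the reads of the cluster in the 3 libraries. A further 8 arms had 20 to 99 reads and 11 arms had 2 to 18. Reads were found for 36 arms in anagen, 41 in catagen and 40 in telogen. An arm without reads may have up to 3, which is 0.188, 0.166 and 0.111 TPM, respectively. The least read members were miR-1197, with 2 reads in anagen only, and miR-376a and miR-539, with 3 reads each in all. The other members with 2 to 18 reads were miR-154a, miR-377, miR-487b and miR-496, and the minor arms of miR-154b, miR-494 and miR-543. These arms are accounted for here and were under 1 TPM in every library.

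**Figure D1:**
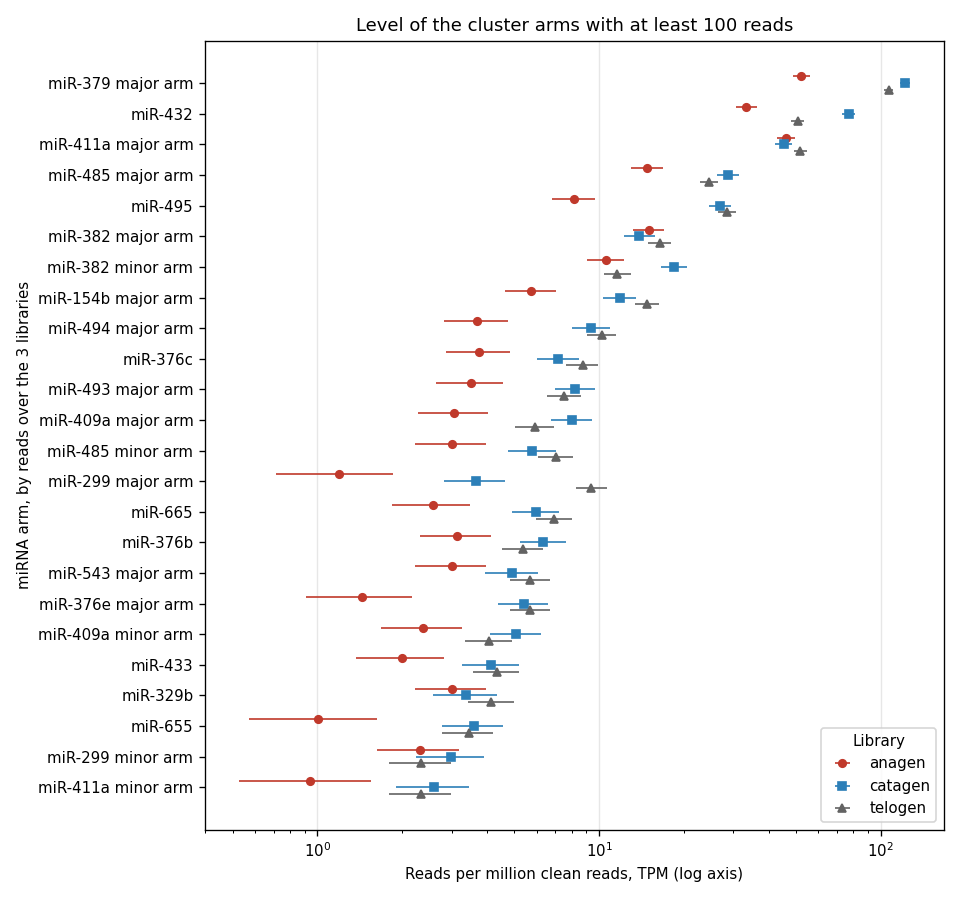
Level of each cluster arm with at least 100 reads in the anagen, catagen and telogen library, in TPM on a log axis. Points are single libraries and bars are 95% exact counting intervals, and anagen is the lowest library for 22 of the 24 arms.

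The levels of the well-read arms were lowest in anagen for all but a few arms. Of the 24 arms, 22 (91.7%) had their lowest level in anagen, 2 in catagen and 0 in telogen, against 55.2% lowest in anagen among the 241 arms of the series with at least 100 reads. The highest level was in telogen for 13 arms (54.2%) and in catagen for 11 (45.8%), beside 32.8% and 44% of the 241 arms. With scaling to assigned reads, however, 19 of the 24 were lower in catagen than in telogen. The 2 arms that were lowest in catagen were the major arms of miR-411a and miR-382, whose 3 values were close together. When size factors from the median of ratios were used for scaling, 20 of the 24 arms were lower in anagen than in catagen and 20 were lower in anagen than in telogen.

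For anagen against catagen, the question was which arms differed between growing and regressing skin. Only arms that reached 1 TPM in at least 1 of the libraries were tested. An arm was called when the absolute log2 ratio exceeded 1 and p was under 0.01 in an exact test on the reads (Audic and Claverie, two-sided). Of 31 cluster arms tested, 18 were called, and all 18 were lower in anagen. Over all arms of the series, 28.8% of the 295 tested were called (23.1% lower and 5.76% higher in anagen). The median log2 ratio was −1.05 over the cluster arms and −0.43 over all arms. Counting intervals lay below 0 for 23 cluster arms (74.2%) and above 0 for 0. Over all arms, 51.9% lay below 0, and 45 of the 295 lay above 0. Of the 18 called arms, 4 reached 1 TPM in catagen only (miR-410, the miR-136 major arm and the minor arms of miR-379 and miR-411a), so that they could enter the test only through the library where they were high. Among the 24 arms chosen by their reads over all libraries, 15 were called, beside 29.5% of the 241 such arms of the series. Size factors moved the median of all arms to −0.02 and that of the cluster arms to −0.67, with 8 of 31 cluster arms called beside 19.4% of all arms. With edgeR's exact test at an assumed biological coefficient of variation of 0.4, which stands in for the replicates that are lacking, 0 of 31 were called beside 3.05% of all arms. Without the muscle miRNAs in the total, 21 were called beside 31.5%.

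In the group around RTL1, 5 of the 6 arms tested were called, beside 28.8% of all arms. With size factors, miR-432, miR-433, miR-665 and the miR-493 major arm were no longer called (−0.82, −0.67, −0.83 and −0.85), and with listed tags only miR-432 and miR-665 were not (both −0.89). Its most abundant member, miR-432, had 534 reads in anagen and 1395 in catagen (33.4 and 77.0 TPM, log2 ratio −1.21, interval −1.35 to −1.06, exact p = 9.52e-67). The miR-493 major arm had 56 and 149 reads (3.50 and 8.23 TPM, log2 ratio −1.23). For these arms the intervals of the libraries did not overlap, and the same was seen for miR-665, with 2.56 TPM in anagen and 5.96 in catagen, and for miR-433, antisense to RTL1, with 2.0 and 4.14. The miR-136 major arm was read less, with 12 reads in anagen and 44 in catagen (log2 ratio −1.70, −2.75 to −0.75, exact p = 0.000143). The miR-493 minor arm, with 18 and 34 reads (log2 ratio −0.74, −1.65 to 0.13), was the arm that was not called.

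In the larger group, miR-379, its first gene, gave the highest level of the cluster. Its major arm had 836 reads in anagen and 2214 in catagen (52.3 and 122 TPM, log2 ratio −1.23, −1.34 to −1.11, exact p = 1.34e-107). miR-495 had 130 and 487 reads (8.13 and 26.9 TPM, log2 ratio −1.73, −2.02 to −1.44, exact p = 2.45e-40). These arms were well apart between the libraries, as were the major arms of miR-494 (3.69 and 9.39 TPM, log2 ratio −1.35), miR-154b (5.75 and 11.9 TPM, −1.05) and miR-409a (3.06 and 8.01 TPM, −1.39). The lowest ratio among the arms with at least 100 reads was that of the miR-376e major arm, with 23 and 98 reads (1.44 and 5.41 TPM, log2 ratio −1.91, −2.64 to −1.25, exact p = 2.80e-10). miR-655, with 1.00 and 3.59 TPM (−1.84), stood close to it, and their intervals overlapped. miR-376b was called with 3.13 and 6.35 TPM (−1.02), and the minor arms of miR-409a with 2.38 and 5.08 TPM (−1.10) and of miR-411a with 0.938 and 2.59 TPM (−1.47). The remaining called arms were read little, namely miR-410 with 4 and 33 reads (−2.87, −4.82 to −1.37) and the miR-379 minor arm with 5 and 28 reads (−2.31, −4.04 to −0.92). The miR-299 major arm, whose gene was not placed in either group, was called with 1.19 and 3.64 TPM (−1.62). In the larger group too, calls were lost with size factors. The major arms of miR-379, miR-494 and miR-154b, the miR-409a minor arm and miR-376b then came inside the limit on the ratio.

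Several arms with intervals below 0 lay inside the limit on the ratio. The miR-485 major arm, 1 of the 5 most read, had 237 reads in anagen and 520 in catagen (14.8 and 28.7 TPM, log2 ratio −0.95, exact p = 3.64e-18), and its minor arm had 3.0 and 5.80 TPM with the same ratio of −0.95. miR-376c had 3.75 and 7.18 TPM (−0.94), the miR-382 minor arm 10.6 and 18.5 TPM (−0.81) and the miR-543 major arm 3.0 and 4.91 TPM (−0.71). These 5 arms passed the limit on p but not that on the ratio. The highest ratios were those of the miR-382 major arm, with 15.0 and 13.9 TPM (0.11, −0.15 to 0.37, exact p = 0.402), and the miR-411a major arm, with 46.3 and 45.2 TPM (0.03, −0.11 to 0.18, exact p = 0.653). Their ratios were 0.49 and 0.42 with size factors. miR-329b, with 3.0 and 3.37 TPM (−0.17), and the miR-299 minor arm, with 2.31 and 2.98 TPM (−0.37), did not pass the test either. Their signs turned with size factors, and that of miR-329b also with listed tags only (0.59).

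For anagen against telogen, which shares the anagen library with the comparison above, growing and resting skin were compared. Of 28 cluster arms tested, 13 were called and all 13 were lower in anagen, while 24.6% of the 293 arms of the series were called (19.5% lower and 5.12% higher in anagen). All 13 were among the 24 arms with at least 100 reads, beside 23.2% of the 241 such arms of the series. Of the 13, 1 (the miR-411a minor arm) reached 1 TPM in telogen only. The median log2 ratio was −0.99 over the cluster arms and −0.31 over all arms. With size factors, 7 cluster arms were called beside 23% of all arms, the cluster median was −0.73 and that of all arms −0.03. With edgeR's exact test at the assumed variation, 1 was called beside 5.12% of all arms. With scaling to the reads assigned to arms, 20 of 32 cluster arms were called beside 31.2% of all arms. With tags of 21 nt or longer 17 were called, and without the muscle miRNAs 14, each beside 24.9% of all arms.

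The miR-299 major arm had the lowest ratio of the arms with at least 100 reads. It had 19, 66 and 254 reads in the 3 libraries (1.19, 3.64 and 9.40 TPM), with a log2 ratio of −2.98 for anagen against telogen (−3.74 to −2.31, exact p = 6.55e-31). None of the 3 intervals overlapped, so that the level differed between each pair of libraries beyond counting error. The miR-495 level was 8.13 in anagen and 28.5 in telogen (log2 ratio −1.81, −2.09 to −1.54), and that of the miR-376e major arm was 1.44 and 5.70 (−1.99). The miR-379 major arm stood just past the limit, at 52.3 and 107 TPM (−1.03, −1.15 to −0.92). The major arms of miR-494 (3.69 and 10.2 TPM, −1.47), miR-154b (5.75 and 14.8 TPM, −1.37) and miR-493 (3.50 and 7.51 TPM, −1.10) were also called. The other called arms were miR-376c (3.75 and 8.74 TPM), miR-665 (2.56 and 6.92), miR-655 (1.00 and 3.44), miR-433 (2.0 and 4.33) and the minor arms of miR-485 (3.0 and 7.03) and miR-411a (0.938 and 2.33).

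Other abundant arms differed less between anagen and telogen. miR-432 had 33.4 TPM in anagen and 50.7 in telogen (log2 ratio −0.60, −0.75 to −0.46, exact p = 4.39e-17), which is inside the limit on the ratio. The miR-485 major arm, at 14.8 and 24.6 TPM (−0.73), was also inside it. So were the miR-409a major arm (3.06 and 5.92 TPM, −0.95), its minor arm (2.38 and 4.07 TPM, −0.78), miR-376b (3.13 and 5.37 TPM, −0.78), the miR-543 major arm (3.0 and 5.70 TPM, −0.93) and miR-329b (3.0 and 4.15 TPM, −0.47, or 0.70 with listed tags only). The highest ratio was that of the miR-299 minor arm, with 2.31 and 2.33 TPM (−0.01, −0.64 to 0.60, exact p = 1.00). The major arms of miR-382 (−0.13) and miR-411a (−0.17) and the miR-382 minor arm (−0.14) came next, and the sign of these 4 arms turned with size factors.

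Catagen and telogen were close. Of 31 cluster arms, 4 were called, beside 12.9% of the 294 arms of the series (7.14% higher and 5.78% lower in catagen). The count was 4 with size factors (13.8% of all arms), 4 without the muscle miRNAs (14.1%), 5 with tags of 21 nt or longer (14.4%) and 0 with edgeR's exact test (0.68%). The median log2 ratio was 0.13 over the cluster arms and 0.11 over all arms, and it turned to −0.18 with scaling to assigned reads. The only called arm with at least 100 reads was the miR-299 major arm, which was lower in catagen (log2 ratio −1.37, −1.78 to −0.97, exact p = 1.64e-13). The other 3 were higher in catagen and were read little, namely the miR-136 major arm with 44 reads in catagen and 20 in telogen (2.43 and 0.740 TPM, 1.71), miR-410 with 33 and 16 reads (1.82 and 0.592 TPM, 1.62) and miR-412 with 24 and 13 reads (1.33 and 0.481 TPM, 1.46). All 3 reached 1 TPM in catagen only, so that this filter admitted them through the library where they were high, and nothing is read from their direction. The highest ratio among the arms with at least 100 reads was 0.67 (0.44 to 0.90), for the miR-382 minor arm with 18.5 and 11.6 TPM. miR-432 followed, with 77.0 and 50.7 TPM (0.60, 0.49 to 0.71). For 19 of the 31 arms the counting interval of the ratio included 0, as it did for 127 of the 294 arms of the series.

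**Figure D2:**
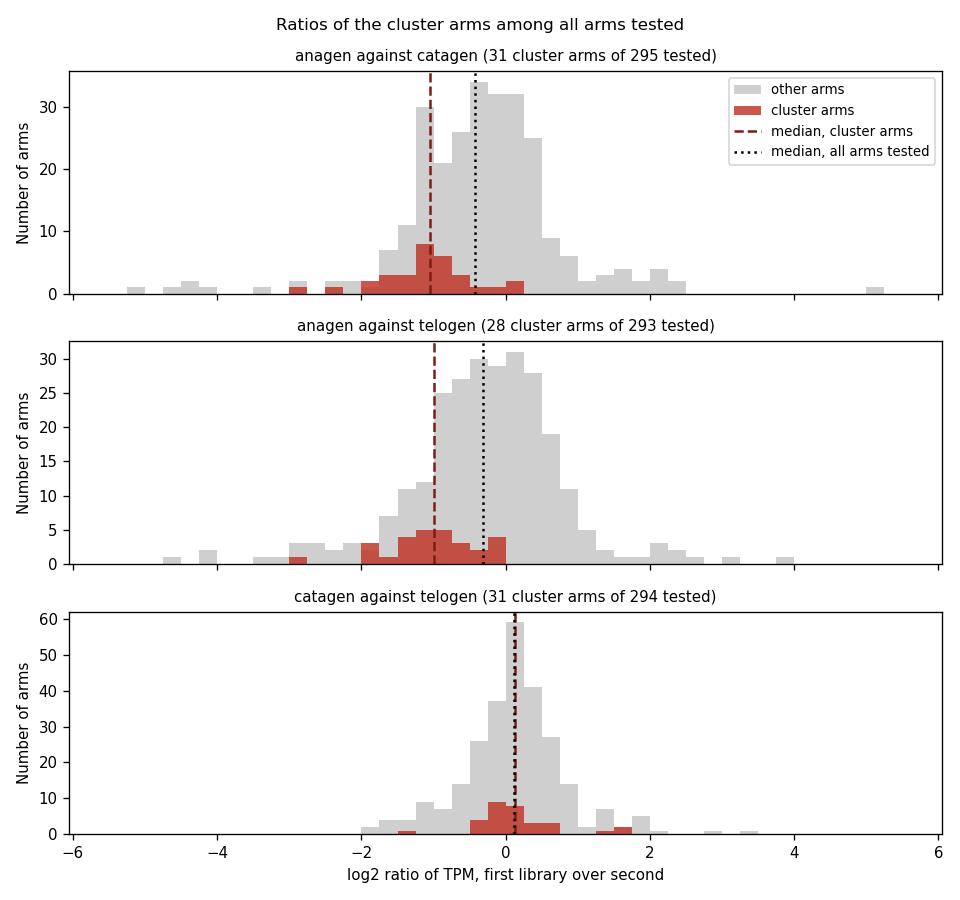
Numbers of arms by log2 ratio of TPM (first library over second) in the 3 comparisons, with the cluster arms in front of the other arms and lines at the medians. The cluster median is −1.05 against −0.43 for all arms tested in anagen against catagen, −0.99 against −0.31 in anagen against telogen, and 0.13 against 0.11 in catagen against telogen.

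The cluster median minus the median of all arms was −0.62 for anagen against catagen and −0.68 for anagen against telogen. A change of scaling moves both medians together, but it also changes which arms reach 1 TPM. For these 2 comparisons the difference was −0.61 and −0.59 with scaling to assigned reads, and −0.64 and −0.70 with size factors. Over the alternatives in the tags counted and in the filter on low counts that were run for the medians, it lay between −0.80 and −0.62 and between −0.86 and −0.63, respectively. These are descriptions of 2 pairs of libraries that share the anagen library, and no test was made of the list.

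The genes were placed in order with the RefSeq gene table of the assembly ARS1.2, which was used for names and neighbours only. A gene was found for 30 of the 32 members, all on chromosome 21, and miR-299 and miR-539 had no entry. With genes no more than 10000 bases apart joined, the members formed 2 groups, of 5 genes with reads from miR-493 to miR-136 and of 23 genes from miR-379 to miR-410. The summed level of the first group was 44.1, 100.4 and 72.5 TPM in the 3 libraries, and that of the second was 185, 339 and 324 TPM. The log2 ratio of the sums for anagen against catagen was −1.19 (−1.31 to −1.06) in the first group and −0.87 (−0.94 to −0.81) in the second. For anagen against telogen the ratios were −0.72 (−0.84 to −0.59) and −0.81 (−0.87 to −0.75), so the intervals overlapped. For catagen against telogen the ratios were 0.47 (0.38 to 0.56) and 0.06 (0.02 to 0.11). This gap rested on miR-432, which held most of the reads of the first group: without it, the first group had 23.4 and 21.8 TPM and a ratio of 0.10 (−0.08 to 0.28), and its ratio for anagen against telogen was −1.02 (−1.27 to −0.77). For anagen against catagen, the first group without miR-432 had −1.12 (−1.38 to −0.86), and this interval overlapped that of the second group. The medians over the arms tested were 0.18 and 0.06 for catagen against telogen.

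Neighbours along the chromosome did not always share a ratio. The miR-379 and miR-411a genes are adjacent among the members, and their major arms had log2 ratios of −1.23 and 0.03 for anagen against catagen, with intervals far apart. The minor arm of miR-411a, at −1.47, was nearer to miR-379 than to its own major arm. The miR-655 and miR-382 genes, adjacent among the members, had ratios of −1.84 and 0.11. These contrasts depended on the short reads described next. With tags of 21 nt or longer, miR-655 and the miR-382 major arm had ratios of −2.34 and −2.28, and the major arms of miR-379 and miR-411a had −1.23 and −0.52.

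**Figure D3:**
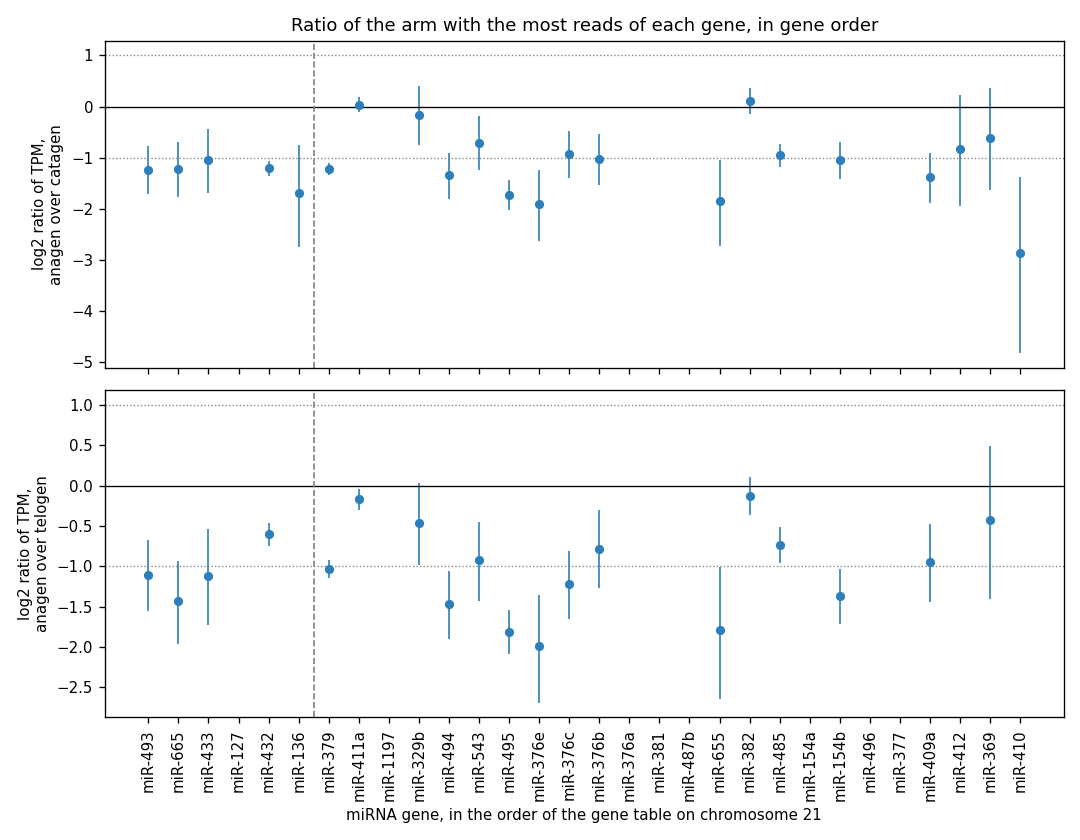
Log2 ratio of TPM for the arm with the most reads of each member gene, in the order of the gene table, for anagen over catagen (top) and anagen over telogen (bottom). Bars are 95% counting intervals, the dashed line parts the 2 groups of genes, dotted lines mark the limits at −1 and 1, and genes without a point had under 1 TPM in both libraries or no listed tag. miR-411a, miR-329b and miR-382 lie nearest to 0 in the upper panel.

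The length of the reads, which the choice of members did not use, differed between libraries. In the cluster, 26.7% of the reads in anagen were 18 to 20 nt long (25.2 to 28.1), against 8.87% (8.26 to 9.51) for catagen and 13.8% (13.1 to 14.4) for telogen. Over all arms of the series the order was the same at lower shares, with 5.08%, 1.85% and 2.84%. The pooled share of the cluster was carried by a few arms, and the median over its 24 well-read arms was 8.0%, 2.42% and 4.92%. The length of 22 nt was the most frequent in the cluster, but with 24.4%, 30.1% and 30.1% of its reads it was less dominant than over all arms, where it held 64.2%, 68.0% and 63.1%. Of the 24 well-read arms, 17 had their highest share of short reads in anagen.

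**Figure D4:**
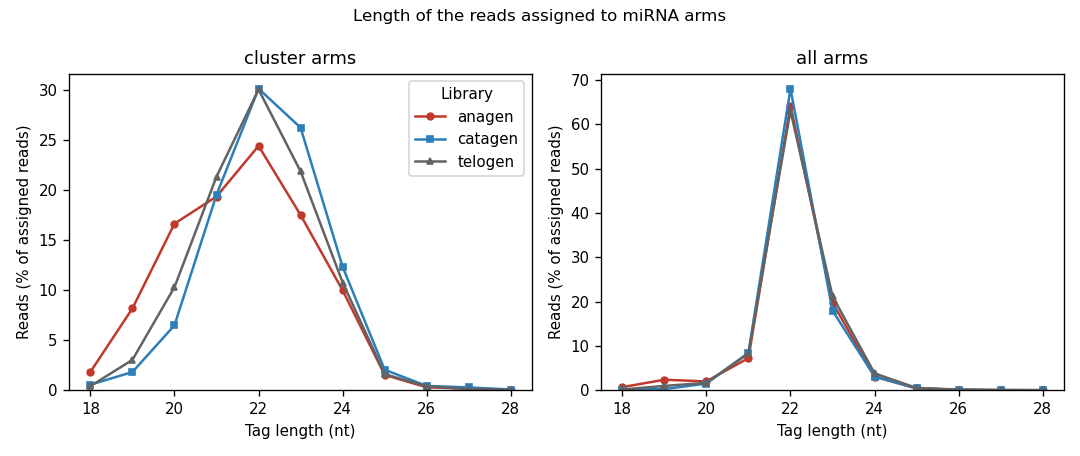
Length of the reads assigned to the cluster arms (left) and to all arms (right), in percent of the assigned reads of each library, from 18 to 28 nt. The anagen library has the most cluster reads of 18 to 20 nt (26.7%, against 8.87% in catagen and 13.8% in telogen), and the vertical scales of the panels differ.

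The arms with the highest shares of short reads in anagen were both arms of miR-382 and the miR-411a major arm. Reads of 18 to 20 nt made up 85.4% of the miR-382 major arm in anagen (80.3 to 89.6), but 23.8% in catagen (18.7 to 29.6) and 58.0% in telogen (53.3 to 62.7). In anagen, 168 of its 240 reads were the tag of 20 nt shown above, while in catagen the tag of 21 nt led, with 116 of 252 reads. For the miR-411a major arm the shares were 57.4%, 37.7% and 47.9%, and for the miR-382 minor arm 65.1%, 25.7% and 43.3%. Counted with tags of 21 nt or longer, the miR-382 major arm had 2.19, 10.6 and 6.88 TPM in the 3 libraries, and its log2 ratio for anagen against catagen turned from 0.11 to −2.28 (−2.84 to −1.75). The miR-411a major arm had 19.7, 28.2 and 27.0 TPM on this count (−0.52, −0.72 to −0.31). With tags of 21 nt or longer, all 24 arms lay below 0 for anagen against catagen, from −2.34 to −0.32, and 22 called arms of 31 stood beside 35% of all arms. Whether the short reads are products of the cell or of handling of the RNA was not tested.

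The share of reads between the arms of a hairpin differed beyond counting error between libraries for 3 miRNAs. With tags of 21 nt or longer, this held for miR-299 but not for miR-382 or miR-411a. Both arms were listed for 13 of the 30 miRNAs, and 12 of these had at least 50 reads. The major arm held 99% of the reads of miR-379, 97.7% of miR-543, 97.5% of miR-154b and of miR-494, 95.9% of miR-411a, 81.1% of miR-493, 80.6% of miR-485, 73.9% of miR-376e, 59.6% of miR-409a and 62.8% of miR-136. For 9 of the 12 the intervals of the 3 libraries overlapped in each pair, but with few reads these were wide. By library, the share was 48.0%, 77.2% and 51.3% for miR-136 and 59.0%, 76.0% and 75.5% for miR-376e. The exceptions were miR-299, miR-382 and miR-411a.

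For miR-299, the major arm held 33.9% of the reads in anagen (21.8 to 47.8), from 19 reads of the major and 37 of the minor arm. It held 55.0% in catagen (45.7 to 64.1), from 66 and 54 reads, and 80.1% in telogen (75.3 to 84.4), from 254 and 63 reads. The telogen share did not overlap either of the others. The minor arm stayed between 2.31 and 2.98 TPM in all 3 libraries, and the major arm went from 1.19 to 9.40 TPM. The shares differed little when only tags of 21 nt or longer were counted, at 34.6%, 56.4% and 80.1%. For miR-382, the major arm held 58.7% in anagen (53.7 to 63.5), against 42.9% in catagen (38.9 to 47.0) and 58.5% in telogen (54.9 to 62.1). Among tags of 21 nt or longer it held 37.2% (27.5 to 47.8), 43.5% (38.9 to 48.3) and 51.1% (45.8 to 56.3). The order of the libraries was then another, and the intervals of each pair overlapped. For miR-411a the shares were 98.0% (96.7 to 98.9), 94.6% (92.8 to 96.0) and 95.7% (94.5 to 96.7), and anagen stood above both others. Among tags of 21 nt or longer they were 95.5%, 91.7% and 92.5%, and the intervals of each pair overlapped (92.6 to 97.4, 89.1 to 93.9 and 90.5 to 94.3).

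**Figure D5:**
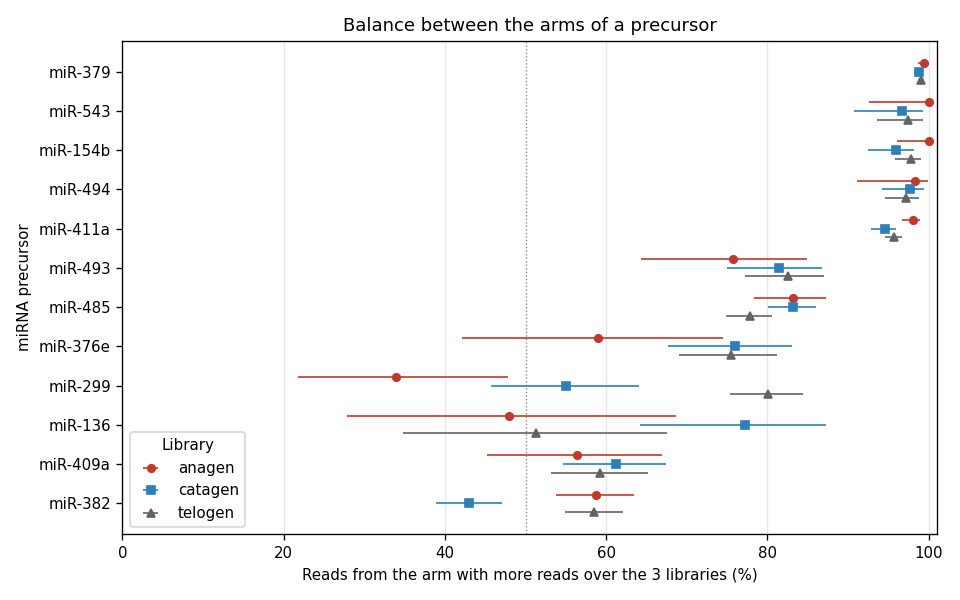
Percent of the reads of each precursor that came from its major arm, for the 12 precursors with both arms listed and at least 50 reads, in each library with 95% exact intervals. miR-299 goes from 33.9% in anagen to 80.1% in telogen, and miR-382 is lowest in catagen (42.9%).

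The 5′ end, which sets the seed, was uniform for most arms. Of the 24 well-read arms, 16 had over 95% of their reads at the most frequent start and 3 had under 80%. In these 3, a start 1 base downstream held a large share in each library, and the shifted tags are shown because their seeds differ from those above.
miR-411a major arm, shifted: tAGTAGACcgtatagcgtac
miR-495, shifted: aACAAACAtggtgcacttcttt
miR-409a major arm, most frequent start: cGAATGTTgctcggtgaacccct
miR-409a major arm, shifted: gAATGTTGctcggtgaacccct
The shifted start held 25.7%, 26.1% and 22.4% of the miR-411a major arm in the anagen, catagen and telogen libraries. For miR-495 it held 26.9%, 24.6% and 25.3%, and for the miR-409a major arm 40.8%, 40.7% and 46.3%. For the miR-409a major arm the start shown as most frequent held 53.1%, 42.8% and 43.8%, so that the shifted start led in telogen, and a further start 2 bases downstream held 6.12%, 16.6% and 10%.

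At the 3′ end, many reads ran past or departed from every listed tag. Such reads made up 30.8%, 36.4% and 32.6% of the cluster, against 14%, 13.9% and 15.9% over all arms. These shares are pooled over reads. The median over the 24 well-read arms was 15.3%, 13.7% and 13.8%, a measure per arm that was not taken over all arms. Most of the departing cluster reads ended in A or T, with 49.4% and 44.8% in anagen, 45.7% and 50.8% in catagen, and 48.8% and 45.9% in telogen. They were concentrated in some arms, and in the miR-379 major arm they held 73.3%, 66.6% and 67.1% of the reads, and in miR-665 70.7%, 78.7% and 70.1%. The tags below are shown with the departing letters in capitals.
miR-379 major arm: tggtagactatggaacgtaggcAT
miR-379 major arm: tggtagactatggaacgtaggcA
miR-432: tcttggagtaggtcattgggtgT
miR-665: accagtaggccgaggcccctcaT
The first of these was the most abundant tag of the whole cluster, with 181, 499 and 589 reads, or 21.7%, 22.5% and 20.4% of the arm. The list was held in part only and no hairpin was used, so that letters added to the RNA and letters of the gene cannot be told apart here.

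A further readout came from tags outside the counts above, those that differ by 1 letter from the first 18 nt of an arm's most frequent start. Positions are counted from 1 at the 5′ end of that start, with the letter of the arm first. Among the 24 well-read arms, 567 reads held such a difference that matched no other listed miRNA, and 258 of them (45.5%) were A-to-G changes. Reads of unlisted relatives may be included. Changes with at least 10 reads and 1% of the arm were 4 in the cluster, all 4 of them A-to-G and all within the seed, and 33 in 205 other arms of the series, of which 7 were A-to-G. At least 1 such change was found in 16.7% of the cluster arms and 12.7% of the other arms. These limits were chosen after the values had been seen. In the other arms, some changes held more reads than the unchanged letters, such as A17C in the miR-141 major arm (96.9%) and G17A in the let-7i major arm (74.3%). Because the list was held in part only, such changes cannot be told apart from relatives missing from it. The share of A-to-G is therefore not compared between the cluster and the other arms.

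The 4 changes lay in miR-376c, the miR-376e major arm, the miR-411a major arm and the miR-379 major arm. They are shown with the changed letter in capitals.
miR-376c with A6G: aacatGgaggaaattccacgt
miR-376e major arm with A6G: aacatGgaggaaaatccacatt
miR-411a major arm with A6G: atagtGgaccgtatagcgtac
miR-379 major arm with A5G: tggtGgactatggaacgtaggc
A6G was found in 54 reads of miR-376c (11.4%, 8.71 to 14.7), at 7.81%, 16.2% and 9.45% by library. The same change was found in 36 reads of the miR-376e major arm (11.6%, 8.24 to 15.7), with 17.9%, 10.1% and 11.5%, respectively. In both, the intervals of the libraries overlapped, and the changed seed was ACATGGA in place of ACATAGA. A6G relative to miR-376b, whose first 18 nt also belong to relatives of it, was found in 9 reads (2.69%, 1.24 to 5.04), under the limit on reads. A6G made up 2.18% of the miR-411a major arm (50 reads, 1.62 to 2.86), with 2.14%, 2.42% and 2.07% in anagen, catagen and telogen. A5G made up 1.39% of the miR-379 major arm (84 reads, 1.11 to 1.72), with 1.3%, 1.25% and 1.53%. These levels were similar in the 3 libraries. The next change with at least 10 reads in any cluster arm held 0.576%. Deamination of adenosine to inosine, which is read as G, is known in precursors of the miR-376 family. Whether the letters seen here come from it, from differences between the DNA of the goats or from unlisted relatives was not tested.

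Other miRNAs of the region were listed in the study but are not among the 32. Of 10 such miRNAs, 3 had an arm with at least 100 reads. miR-154c had 2396, 5431 and 3239 reads (149.8, 299.9 and 119.9 TPM), more than any arm of the 30 miRNAs above. It was lower in anagen than in catagen (log2 ratio −1.0, −1.07 to −0.93) but higher in anagen than in telogen (0.32, 0.24 to 0.40). The miR-411c major arm had 9.63, 19.9 and 13.9 TPM, and miR-541 had 1.06, 2.76 and 1.85 TPM. For anagen against catagen, 3 of 3 arms were called, all lower in anagen, beside 28.8% of all arms. Of these, miR-154c and the miR-411c major arm (−1.05) stood only just past the limit on the ratio. For anagen against telogen, 0 of 3 were called, beside 24.6% of all arms. For catagen against telogen, 1 of 3 was called, beside 12.9% of all arms. This was miR-154c (1.32), which was higher in catagen.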

How the data were processed

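The authors filtered the sequenced reads for quality, for adapters, for poly(A) and for length, and collapsed the rest into tags. The deposited files hold the count of reads of each tag, without normalisation, with its length as another column. No alignment enters them, and the program versions are not given in the sources used here. The annotated tags came from a shortened copy of the study's list, with 1999 tags for each stage, so no overlap test was run on it. Listed tags of a miRNA that overlapped by at least 14 nt formed an arm. Levels in TPM are relative to clean reads, and 0 was set to 0.01 TPM in ratios.

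Tests were run over all arms with Python 3.11.15 and SciPy 1.17.1, and edgeR 4.0.16 in R 4.3.3 served for an alternative. Without replicates, no quasi-likelihood fit was possible. The scripts were tested on simulated data. Depth was 15997828, 18111912 and 27016012 clean reads for anagen, catagen and telogen. Arms with at least 100 reads over the 3 libraries, the arms with the highest and lowest ratio among these, and the pairs of arms in the arm balance were described in full. The other miRNAs of the region were miR-154c, miR-323, miR-329a, miR-376d, miR-411b, miR-411c, miR-487a, miR-541, miR-1185 and miR-3957. The members and lists were chosen with earlier results of these data known. Alternatives were other scalings, other tags counted, other filters and other tests.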

Additional observations from a re-analysis of the deposited data

How the results depend on the processing

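For anagen against catagen, the 18 called arms came to 8 with size factors (19.4% of all arms) and 0 with edgeR's exact test (3.05%). The median log2 ratio of −1.05 came to −0.67 with size factors, −1.23 with tags of 21 nt or longer (−1.23 over the arms with at least 100 reads), and −1.21 without a minimum level (−0.99 with arms at 0 reads set to the limit of 3 reads). For anagen against telogen, the 13 called arms came to 20 with scaling to assigned reads, beside 31.2% of all arms. They came to 7 with size factors (23% of all arms) and 1 with edgeR (5.12%). The median of −0.99 came to −1.25 with assigned reads, −0.73 with size factors, −1.05 with listed tags only, −1.14 with tags of 21 nt or longer (−1.18 over the arms with at least 100 reads) and −1.10 without a minimum (−0.78 with arms at 0 at the limit). For catagen against telogen, the 4 called arms came to 1 of 24 with at least 100 reads, beside 11.9% of all arms. Without the limit on the ratio, 11 of 31 were called, which is below the 50.7% of all arms. With edgeR 0 were called, beside 0.68%. The median of 0.13 turned to −0.18 with assigned reads and to −0.070 with at least 100 reads, and came to 0.012 with size factors and 0.18 with tags of 21 nt or longer (0.084 over the arms with at least 100 reads).

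The log2 ratio of the summed levels for anagen against catagen came to −0.82 with listed tags only, −1.25 with tags of 21 nt or longer, −0.84 without the miR-379 major arm and −1.0 without the 3 most read arms. For anagen against telogen it came to −1.05 with tags of 21 nt or longer, −1.13 with assigned reads, −0.74 without the miR-379 major arm and −0.98 without the 3 arms. For catagen against telogen it came to 0.043 with listed tags only, 0.21 with tags of 21 nt or longer and 0.016 without the 3 arms, and turned to −0.19 with assigned reads. The share of reads of 18 to 20 nt with listed tags only was 37.4%, 13.1% and 19.8% for anagen, catagen and telogen. The share at the most frequent start came from 91.7%, 93.0% and 92.4% to 89.6%, 90.2% and 90.1%. Of 927 values of single arms under an alternative, 794 kept direction and side of the threshold, 56 lost the call, 46 gained it and 31 turned, of which all but the miR-382 major arm at −2.28 (below) were uncalled on both sides.

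For anagen against catagen, the miR-382 and miR-411a major arms turned to −2.28 and −0.52 with tags of 21 nt or longer and to −0.0038 and −0.080 without the muscle miRNAs. miR-329b turned to 0.22 with size factors, 0.59 with listed tags only and 0.53 with exact parts of the assembled sequences, and the miR-299 minor arm to 0.018 with size factors. For anagen against telogen, size factors turned the major arms of miR-411a and miR-382 to 0.099 and 0.14 and the minor arms of miR-382 and miR-299 to 0.13 and 0.25. The miR-299 minor arm and miR-329b turned to 0.30 and 0.70 with listed tags only and to 0.38 and 0.64 with exact parts, and the miR-382 major arm to 0.25 with its most abundant tag. For catagen against telogen, assigned reads turned miR-376b to −0.071, miR-655 to −0.25, the miR-411a minor arm to −0.16 and the major arms of miR-485, miR-379 and miR-493 to −0.091, −0.12 and −0.18. miR-655 turned to −0.059 with size factors, and the miR-411a and miR-382 major arms to 0.059 and 0.62 with tags of 21 nt or longer. The miR-494 and miR-154b major arms turned to 0.045 and 0.21 with the most abundant tag. miR-495, the miR-376e major arm and miR-433 turned to 0.0012, 0.012 and 0.023 without the muscle miRNAs. The cause of these shifts was not tested.

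The limits are those of 1 library for each stage. No paired analysis was possible because each stage has 1 library, and no replicate could be left out. Intervals cover counting error, so arms with under 100 reads are the least certain. Leaving out the most read arms and miR-432, the 21-nt limit over well-read arms and the search for single-letter differences were chosen after seeing the data.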
